A study of Mus musculus with 4 samples.

Results

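The genes described here carry glucose and lactate across the membrane, break glucose down to pyruvate and lactate, admit pyruvate to the mitochondrion, or regulate the hypoxia-inducible factor HIF-1. They were chosen by name, with earlier results of these data known. All 39 were among the 24418 genes of the deposited expression values, and 38 of them had enough reads to be tested. RNA was sequenced from regulatory T (Treg) cells sorted from spleen and lymph nodes of Foxp3YFP-Cre mice, in which the Foxp3 locus drives a yellow fluorescent protein fused to Cre recombinase. The sorted cells were held for 3 h with PBS or with thymic stromal lymphopoietin (TSLP), an epithelial cytokine. There were 2 samples of each kind (PBS 1, PBS 2, TSLP 1 and TSLP 2), all from this genotype. The study used young adult mice. The labels do not say whether the samples came from separate animals, so that the p-values below measure only the spread between these samples, which may be technical. The libraries held 11328132 (PBS 1), 10724392 (PBS 2), 11761234 (TSLP 1) and 10271571 (TSLP 2) reads on genes. Below, the values of PBS 1 and PBS 2 are given first and those of TSLP 1 and TSLP 2 after them, in that order.

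Glycolysis splits glucose into pyruvate in the cytosol. Pyruvate is then either reduced to lactate by lactate dehydrogenase and exported by monocarboxylate transporters, or carried into the mitochondrion and oxidised by the pyruvate dehydrogenase complex, which its kinases switch off and its phosphatases switch on. HIF-1 is a transcription factor whose alpha subunit is hydroxylated by EGLN enzymes when oxygen is present and then destroyed. It raises the transcription of many glycolytic genes. Activated conventional T cells lean heavily on glycolysis, and Treg cells are known to rely more on the oxidation of fatty acids. The study asked which pathways TSLP engages in Treg cells, and it looked at glucose transport genes among others.

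None of these genes passed the test between TSLP and PBS. The abundant enzymes had nearly the same mean level in both groups. Both TSLP samples lay above both PBS samples for 7 of the 38 genes (Slc2a6, Slc2a8, Pfkfb3, Pgam1, Pgk1, Pdk3 and Hif1a), or 18.4%, against 14.5% of all genes tested. They lay below for Aldoc and Eno3, or 5.26%, against 14.4% of all genes. For 29 of the 38 genes (76.3%) the difference between the groups was smaller than the mean difference between 2 libraries of a group, which is close to the 71.1% of all genes. None of these shares was tested.

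Many of these genes share stretches of sequence with other genes, among them processed pseudogenes that copy an mRNA. A 50-base read that fits more than one place may be discarded or misplaced in counting. The share of such sequence was taken from 50-base windows of the annotated transcripts (GENCODE release M21, on mm10). It was 68.0% of windows for Pgk1, 58.4% for Gapdh, 49.5% for Eno1 and 41.5% for Pgam1, against a median of 0.258% over 10500 tested genes with windows. Only 3.42% of those genes shared more than 50% of their windows, as did 2 of the tested genes described here (Pgk1 and Gapdh), and 12 of the 39 shared more than 10%. The windows of Gapdh recurred in 222 other genes, of which 213 were pseudogenes. Stretches of 120 coding bases from the middle of 4 coding sequences show the difference. Capitals mark bases that lie in a 50-base window also present in another gene. Each stretch spans 2 exons, Gapdh on the minus strand at chr6:125162708-125162961, Pgam1 on the plus strand at chr19:41915787-41916669, Ldha on the plus strand at chr7:46850328-46850980 and Aldoc on the plus strand at chr11:78325154-78325392.

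Gapdh: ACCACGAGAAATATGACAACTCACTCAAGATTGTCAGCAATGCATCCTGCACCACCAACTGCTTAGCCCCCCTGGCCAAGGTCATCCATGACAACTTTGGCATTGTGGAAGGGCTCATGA

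Pgam1: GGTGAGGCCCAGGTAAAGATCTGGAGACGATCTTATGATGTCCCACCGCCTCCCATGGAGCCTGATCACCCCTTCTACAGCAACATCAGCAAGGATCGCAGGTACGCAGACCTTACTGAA

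Ldha: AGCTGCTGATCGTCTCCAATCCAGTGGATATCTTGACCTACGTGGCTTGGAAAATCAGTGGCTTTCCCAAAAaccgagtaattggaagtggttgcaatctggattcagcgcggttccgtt

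Aldoc: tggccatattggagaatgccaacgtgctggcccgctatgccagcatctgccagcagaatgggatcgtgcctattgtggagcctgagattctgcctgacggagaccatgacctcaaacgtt

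Every base of the Gapdh and Pgam1 stretches was shared, 72 of the 120 bases of the Ldha stretch, and none of the Aldoc stretch. Gapdh, one of the most abundant mRNAs of most cells, had only 92 and 37 with PBS against 61 and 66 with TSLP (reads on the gene). Eno1, the enolase of most tissues, had 0 reads in all 4 libraries. For counting error only, this allows up to 3 reads in each, and it does not cover reads that may have been discarded. The near-identical copy of Eno1, Eno1b, had 0 and 1 with PBS against 0 and 0 with TSLP. Levels of Gapdh, Pgk1, Pgam1 and Eno1 are therefore levels of what the authors' counting assigned, and they are uncertain as levels of the mRNA. The part of shared sequence in the low counts of Gapdh and Eno1 was not tested. The same limit holds for further genes with much of their coding sequence in shared windows. The share of coding bases in such windows was 89.9% for Pkm, 80.6% for Gpi1, 77.8% for Ldhb, 73.0% for Pdhb, 69.7% for Ldha and 51.5% for Mpc1.

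**Figure D1:**
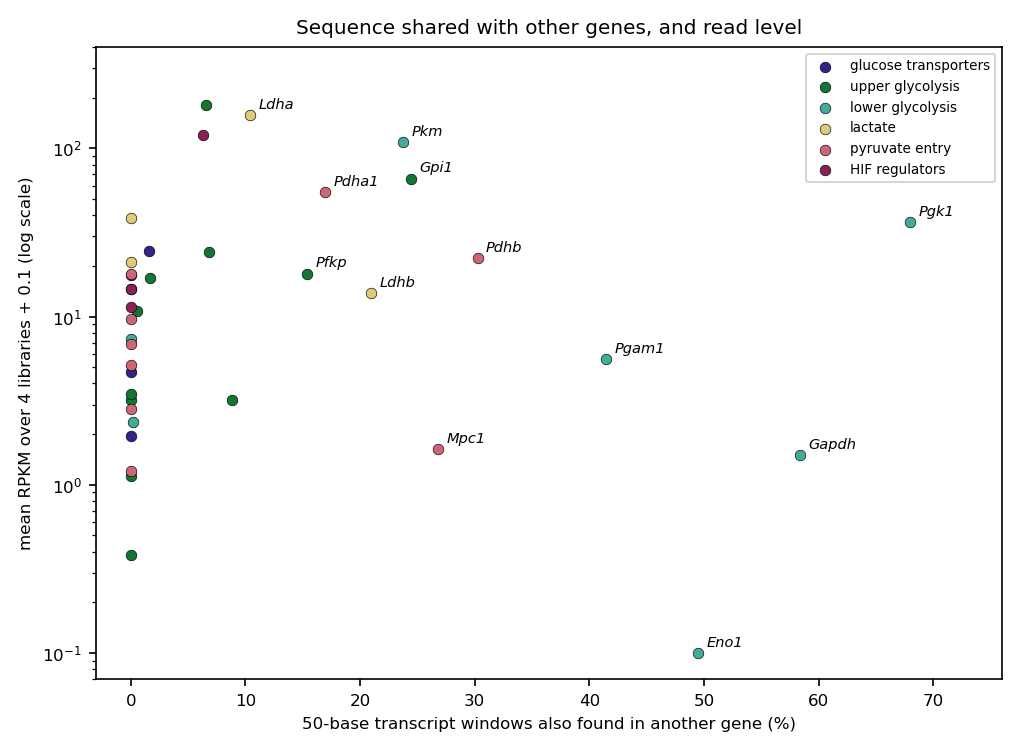
Share of 50-base transcript windows that recur in another gene (x axis, %) against the mean level over the 4 libraries (y axis, RPKM plus 0.1, log scale), 1 point per gene, coloured by role. Eno1 and Gapdh combine a large shared share with a level at or near the bottom, whereas Pgk1 has the largest share and a level of 36.4.

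The cells were checked against marker genes before the comparison. Foxp3, the defining factor of Treg cells, had 2514 and 5065 with PBS against 4784 and 4824 with TSLP, and the summed level of 7 Treg markers was 3692, 4223, 4157 and 4463 cpm in the same order, where cpm are reads per 1000000 reads on genes. Markers of other cells were low. The 4 B cell markers (most abundant gene Cd79b) summed to 0.618, 10.4, 5.02 and 9.35 cpm, the 7 myeloid ones (most abundant gene Cd68) to 17.6, 11.9, 8.59 and 9.83 cpm, and the 2 CD8 markers (most abundant gene Cd8b1) to 13.4, 7.83, 8.84 and 12.0 cpm. PBS 1 was thus lowest in B cell markers and highest in the other 2 lists, and the part of such cells in the results was not tested. The haemoglobin genes, the platelet genes Pf4 and Ppbp, and the myeloid genes Adgre1 and S100a9 were at 0 reads in every library.

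PBS 1 stood apart from the other libraries. It had the fewest reads on Foxp3 and the fewest genes with a read, 11484, against 11937 to 12355 in the others. Its difference from PBS 2 fell along exon length, with Spearman's rho of -0.66 across 2680 genes averaging at least 1000 reads, whereas the 2 TSLP libraries gave 0.05. Those genes share their libraries and are not independent. Over the 38 tested genes described here, the same correlation with the PBS difference was -0.23. Some fold changes printed for named genes moved by over 1.5 times without PBS 1 or another library. For these, a value without the library or a range is given beside the gene or at the end. The limits of the pentose phosphate genes were not recomputed in this way.

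The levels differed widely between genes. Reads were divided by exon length and by the reads of the library (RPKM, reads per kilobase of exon per 1000000 reads on genes) to set genes side by side. The highest mean levels over the 4 libraries were those of Aldoa (181 RPKM), Ldha (158), Hif1a (119), Pkm (109), Gpi1 (65.9) and Pdha1 (54.9). The lowest, apart from Eno1, were those of Hk3 (0.284), Aldoc (1.03), Pdk2 (1.10), Gapdh (1.40) and Mpc1 (1.53). Shared sequence, described above, limits the levels of Ldha, Pkm, Gpi1, Gapdh and Mpc1 in this ranking. Together the 39 genes held 5047 and 4110.4 cpm with PBS against 4873 and 4443 cpm with TSLP, so that the highest and the lowest sums were the 2 PBS libraries.

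**Figure D2:**
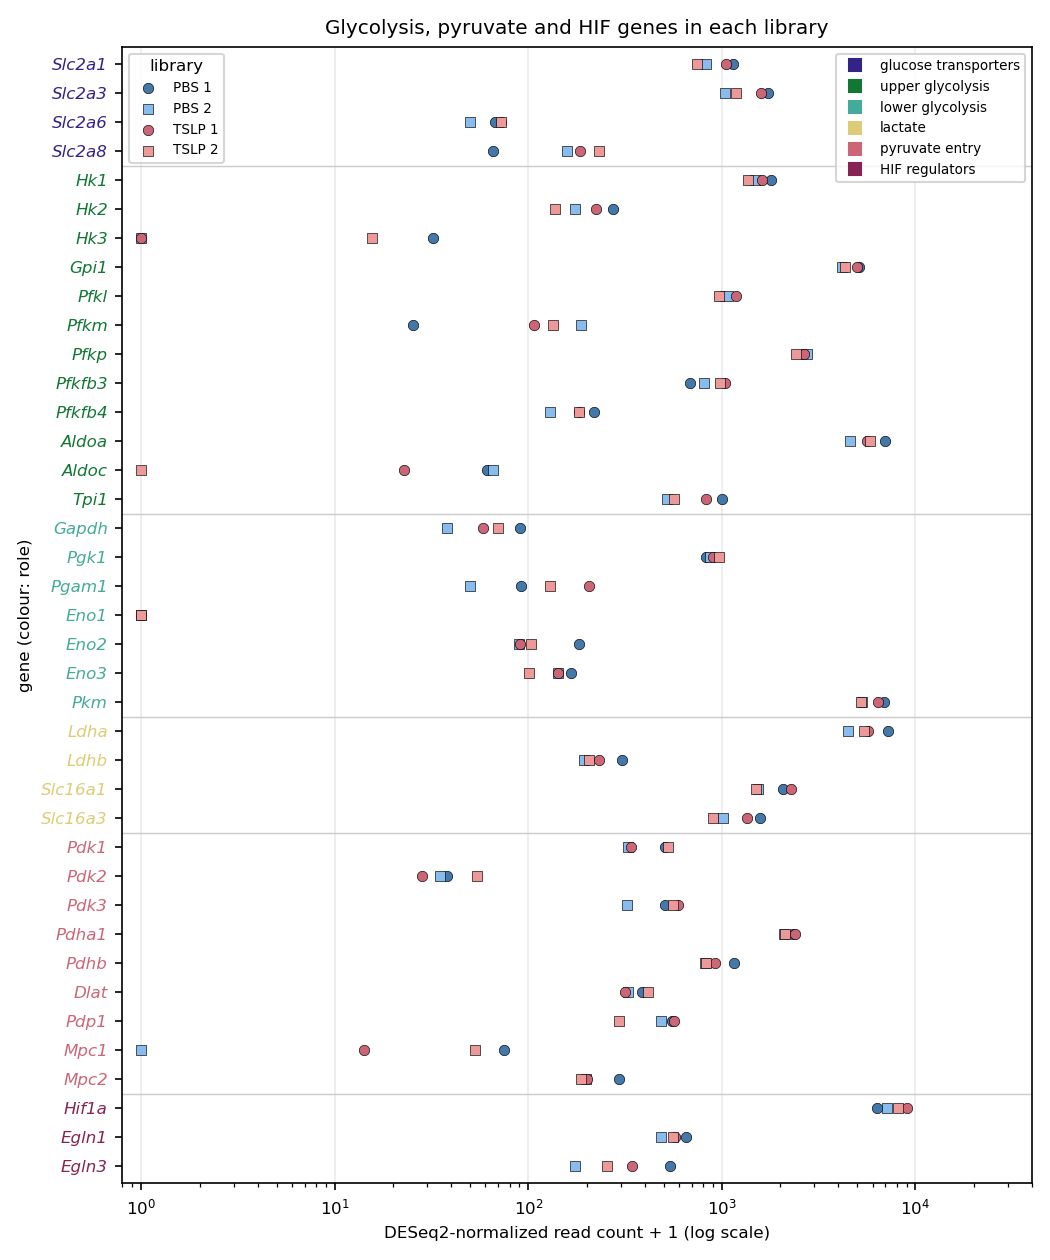
DESeq2-normalized read count plus 1 (x axis, log scale) of each of the 39 genes (y axis, grouped by role) in the 4 libraries, circles for library 1 and squares for library 2 of a group. For 7 genes, Hif1a and Pfkfb3 among them, both TSLP points lie to the right of both PBS points, and for most abundant enzymes the points of the groups interleave.

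TSLP was then compared with PBS by limma on log2(normalized count + 1), with Benjamini-Hochberg adjustment over the 11392 genes tested. Of the 38 genes, 0 had an adjusted p under 0.05, as had 0.0% of all genes, where the smallest adjusted p was 1.0. At an unadjusted p under 0.05 there were 2 of the 38 (Aldoc and Pgam1), against 1.69% of all genes tested (192 genes). With edgeR and with DESeq2 on the recovered reads, 0 genes passed the adjusted threshold and 234 passed the unadjusted one with each tool. The fold change was above 0 for 21 of the 38 genes and below 0 for 17. Its median was 0.02 on the log2 scale, as against 0.01 over all genes.

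The precision allowed by 2 samples a group differed between genes. The 95% confidence interval of the fold change stayed within a 2-fold change in either direction for 20 of the 38 genes. The standard error ranged from 0.21 on the log2 scale for Pfkp to 2.64 for Hk3, with a median of 0.33.

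**Figure D3:**
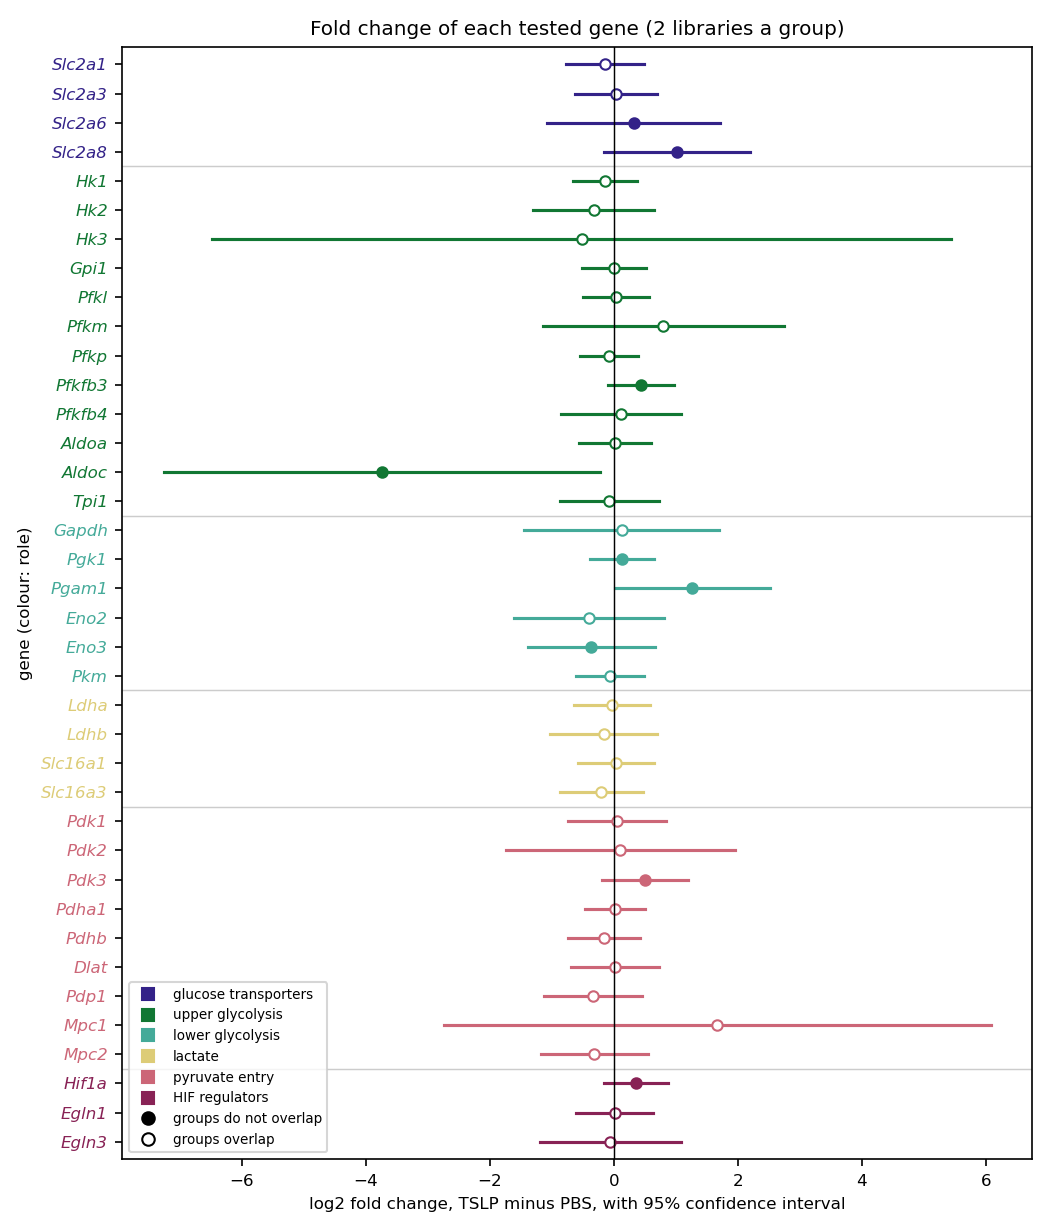
Log2 fold change of TSLP against PBS (x axis) with its 95% confidence interval from limma, 1 line per tested gene, coloured by role. Filled points are the 9 genes whose groups do not overlap, and only the intervals of Aldoc and Pgam1 leave out 0.

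Glucose enters through the GLUT transporters. Slc2a1 (GLUT1), the basal transporter of proliferating T cells, lies at chr4:119108711-119137983 and had normalized counts of 1135 and 831 with PBS against 1048 and 741 with TSLP. The samples of the groups interleaved (log2 fold change -0.14, SE 0.28, unadjusted p = 0.622). Slc2a3 (GLUT3), the high-affinity neuronal and lymphocyte transporter, had 1738 and 1036 with PBS against 1584 and 1187 with TSLP, and its fold change was 0.03. Slc2a8 (GLUT8), an intracellular transporter, at chr2:32972990-32982083, had 64.9 and 158 with PBS against 184 and 232 with TSLP. It was lowest in PBS 1, and both TSLP samples were higher than both PBS samples (log2 fold change 1.02, SE 0.52, unadjusted p = 0.0833). Without PBS 1 the fold change of Slc2a8 was 0.38, so that much of its size rested on that library. Slc2a6 (GLUT6), a lysosomal transporter, had 65.9 and 49.0 with PBS against 71.6 and 71.1 with TSLP and the same order of groups, with an unadjusted p of 0.615. Slc2a2, Slc2a4, Slc2a5, Slc2a10 and Slc2a12, transporters of liver, muscle and fat, gut and other tissues, had 0 reads in all 4 libraries.

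Hexokinase traps glucose in the cell. Hk1, the housekeeping form bound to mitochondria, had 1803 and 1486 with PBS against 1617 and 1369 with TSLP (log2 fold change -0.14, SE 0.23, unadjusted p = 0.562). Hk2, the form that growth factors and HIF-1 induce, had 271 and 174 with PBS against 221 and 136 with TSLP (log2 fold change -0.32, SE 0.43, unadjusted p = 0.474). Within each group the first library was higher for both genes, and the groups overlapped. Hk3, a myeloid form, had reads in a single library of each group, 32 and 0 with PBS against 0 and 14 with TSLP.

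Phosphofructokinase sets the pace of the pathway. Pfkp, the platelet form, had 2608 and 2739 with PBS against 2666 and 2412 with TSLP with the smallest standard error of all these genes (log2 fold change -0.08, SE 0.21, unadjusted p = 0.726). Pfkl, the liver form, had 995 and 1077 with PBS against 1176 and 960.4 with TSLP. Pfkm, the muscle form, had 24.2 and 185 with PBS against 106 and 133 with TSLP, and the low value in PBS 1 set its fold change, which was 0.80 with that library and -0.64 without it, and 0.18 by edgeR with all libraries. Pfkfb3 makes fructose 2,6-bisphosphate, the strongest activator of phosphofructokinase. It lies at chr2:11471433-11554077 and had 685 and 802 with PBS against 1038 and 980.3 with TSLP, or 744 ± 82.8 with PBS and 1009 ± 40.9 with TSLP (SD, n = 2). Both TSLP samples were above both PBS samples (log2 fold change 0.44, SE 0.24, unadjusted p = 0.0928, 95% interval -0.09 to 0.98). Leaving out any of the 4 libraries kept the fold change of Pfkfb3 between 0.33 and 0.56. Its relative Pfkfb4 had 218 and 129 with PBS against 182 and 181 with TSLP, with PBS 1 highest and PBS 2 lowest. Of the 2 relatives outside the list, Pfkfb2 had 146 and 374 with PBS against 265 and 262 with TSLP (reads) and Pfkfb1 had 22 and 37 with PBS against 65 and 7 with TSLP.

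The remaining enzymes of upper glycolysis did not separate the groups, apart from Aldoc. Gpi1, glucose-6-phosphate isomerase, had 5087 and 4187 with PBS against 4961 and 4300.4 with TSLP, with a fold change of 0.00 (95% interval -0.51 to 0.51). Aldoa, the main aldolase, had 6923 and 4566 with PBS against 5629 and 5829 with TSLP, and its TSLP samples lay between its PBS samples. Tpi1, triosephosphate isomerase, had 998 and 517 with PBS against 830.0 and 562 with TSLP, high in the first library and low in the second library of each group. Aldoc, the aldolase of brain, is a rare transcript here. It lies at chr11:78322968-78327781, shares no 50-base window with another gene, and had 62 and 65 with PBS against 23 and 0 with TSLP (reads). Both TSLP samples were below both PBS samples (log2 fold change -3.74, SE 1.56, unadjusted p = 0.0397). After Benjamini-Hochberg adjustment in limma its p was 1.0. The size of this difference depends on the value added before taking logarithms, since TSLP 2 was at 0, which allows up to 3 reads (counting error only). It was -4.24 with 0.5 added and -2.55 with 5 added. By edgeR the unadjusted p of Aldoc was 0.137 and by DESeq2 0.0742, and the fold change was -1.49 without TSLP 2 and -5.99 without TSLP 1 (unadjusted p of 0.00674 in limma).

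In lower glycolysis, Pgam1 had the smallest p. This phosphoglycerate mutase, at chr19:41911923-41918660, had 91.1 and 49.0 with PBS against 205 and 129 with TSLP. Both TSLP samples were above both PBS samples, although the libraries of a group differed by 0.88 (PBS) and 0.67 (TSLP) on the log2 scale (log2 fold change 1.27, SE 0.55, unadjusted p = 0.0475, 95% interval 0.02 to 2.52). After Benjamini-Hochberg adjustment in limma its p was 1.0. The fold change of Pgam1 was 0.83 without PBS 2 and 1.71 without PBS 1. The unadjusted p of Pgam1 was 0.0395 by edgeR, 0.0619 by DESeq2, 0.0581 by limma without the intensity trend and 0.0604 by limma with no filter on low values. In limma with a library left out it was 0.0389 without PBS 1 and 0.0859 to 0.283 in the other 3 fits. Its whole coding sequence lies in windows shared with 4 other genes, all annotated as pseudogenes, and the part of misplaced reads in this difference was not tested. Pgam2, the muscle form, had 0 and 7 with PBS against 48 and 20 with TSLP (reads) and the same order of groups, with an unadjusted p of 0.0713. Only its TSLP libraries reached the count required for testing, so that Pgam2 was tested because it was high with TSLP. No conclusion was drawn from the order or the p of Pgam2. Pgk1, phosphoglycerate kinase, had 829 and 864 with PBS against 898 and 965 with TSLP, a difference of 0.14 on the log2 scale with TSLP above PBS. Pkm, pyruvate kinase of T cells and muscle, had 6877 and 5324 with PBS against 6390.1 and 5216 with TSLP (log2 fold change -0.07, SE 0.24, unadjusted p = 0.786). Eno3, the muscle enolase, had 165 and 142 with PBS against 141 and 100.3 with TSLP, and its TSLP samples were just below its PBS samples (log2 fold change -0.36, SE 0.45, unadjusted p = 0.449). The fold change of Eno3 was -0.60 without TSLP 1 and -0.11 without TSLP 2. Eno2, the neuronal enolase, had 188 and 88 with PBS against 95 and 98 with TSLP (reads), with PBS 1 far above the other libraries.

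The genes of lactate production and export did not separate the groups. Ldha, which turns pyruvate into lactate, lies at chr7:46841475-46855627 and had 7187 and 4457 with PBS against 5716 and 5412 with TSLP, or 5822 ± 1930.2 with PBS and 5564 ± 214 with TSLP (SD, n = 2). PBS 1 was highest and PBS 2 lowest, with both TSLP samples between them (log2 fold change -0.03, SE 0.27, unadjusted p = 0.928, 95% interval -0.63 to 0.58). Ldhb, which favours the reverse reaction, had 305 and 193 with PBS against 229.9 and 206 with TSLP. Slc16a1 (MCT1), a carrier of lactate and pyruvate in both directions, had 2066 and 1543 with PBS against 2266 and 1494 with TSLP (log2 fold change 0.04, SE 0.27, unadjusted p = 0.876). Slc16a3 (MCT4), the exporter of glycolytic cells, had 1579.9 and 1016 with PBS against 1343 and 902 with TSLP (log2 fold change -0.20, SE 0.30, unadjusted p = 0.512). In all 4 lactate genes the first library was above the second in either group. The chaperones of these carriers, Bsg and Emb, had fold changes of -0.09 and -0.12, and the groups overlapped.

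Of the genes for pyruvate entry, Pdk3 had the smallest p. This pyruvate dehydrogenase kinase, which restrains the complex, lies at chrX:93764607-93832201 and had 506 and 323 with PBS against 594 and 555 with TSLP. Both TSLP samples were above both PBS samples (log2 fold change 0.51, SE 0.31, unadjusted p = 0.133), and the fold change of Pdk3 was 0.83 without PBS 1 and 0.18 without PBS 2. The unadjusted p of Pdk3 in limma was 0.0236 without PBS 1, 0.0382 with the trend of each library over exon length removed and 0.0368 with a replicate block as well. The related kinases Pdk1 and Pdk2 had fold changes of 0.05 and 0.11, and their groups overlapped. Pdk4, the kinase of fasting tissues, had 0 reads in all 4 libraries. The subunits of the complex hardly differed between the groups, with fold changes of 0.02 for Pdha1, -0.16 for Pdhb and 0.02 for Dlat. Pdp1, a phosphatase that releases the block, had 549.6 and 481 with PBS against 564 and 294 with TSLP, with TSLP 2 lowest. Mpc1, one of the 2 subunits of the mitochondrial pyruvate carrier, had 76 and 0 with PBS against 14 and 50 with TSLP (reads), too scattered to compare, and its partner Mpc2 had 293 and 197 with PBS against 199.7 and 186 with TSLP. Pdpr, a regulator of the phosphatase outside the list, had 72 and 345 with PBS against 460 and 465 with TSLP (reads). Its PBS 1 sample was far below the rest (log2 fold change 1.55, SE 0.63, unadjusted p = 0.0357), and without PBS 1 the fold change of Pdpr was 0.41.

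Among the HIF regulators, Hif1a, the oxygen-sensitive subunit, was itself one of the most abundant transcripts. It lies at chr12:73901375-73947530 and had 6304 and 7124 with PBS against 9046 and 8163 with TSLP, or 6714 ± 579.6 with PBS and 8604 ± 624 with TSLP (SD, n = 2). Both TSLP samples were above both PBS samples (log2 fold change 0.36, SE 0.23, unadjusted p = 0.150, 95% interval -0.16 to 0.87). The fold change of Hif1a ranged from 0.27 to 0.45 when each library was left out in turn. Egln1 (PHD2), the main oxygen sensor, had 654 and 482 with PBS against 575 and 560.2 with TSLP (log2 fold change 0.01, SE 0.27, unadjusted p = 0.959). Egln3 (PHD3), a hydroxylase that HIF-1 itself induces, had 538 and 174 with PBS against 343 and 254 with TSLP, and its PBS samples were the extremes. Arnt, the constant partner of the alpha subunits, had 1791 and 1951 with PBS against 2095 and 1981 with TSLP (reads) and a fold change of 0.13, which was 0.05 without PBS 1. Epas1 (HIF-2 alpha) had 767 and 758 with PBS against 533 and 656 with TSLP (reads) and a fold change of -0.36, and both TSLP samples were below both PBS samples. The fold change of Epas1 was -0.13 without TSLP 1 and -0.58 without TSLP 2. The same order held for Egln2 (PHD1), a further HIF hydroxylase, with 886 and 968 with PBS against 772 and 725 with TSLP (reads) and a fold change of -0.30.

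HIF target genes outside glycolysis were read from a list of 15, of which 13 were tested. None had an adjusted p under 0.05, and 1 had an unadjusted p under 0.05 (1.69% of all genes tested). This was Ankrd37, a hypoxia-induced gene, with 170 and 33 with PBS against 22 and 6 with TSLP (reads; log2 fold change -2.58, SE 1.09, unadjusted p = 0.0413). Its PBS 1 sample was far above the others, and without PBS 1 the fold change of Ankrd37 was -1.44. Of the 13 genes, 3 had a fold change above 0 and 10 below, with a median of -0.11, and both TSLP samples were above both PBS samples in 0 of them and below in 4. Over all genes tested, 51.2% had a fold change above 0, 14.5% had both TSLP samples above and 14.4% below. The lean of the HIF targets rested in part on PBS 1, which was above PBS 2 for 10 of the 13. Against PBS 2 alone, Ddit4, P4ha1, Ndrg1 and Mxi1 were higher with TSLP on the log2 scale and Ero1l lower. In each this reverses the direction found with all libraries. Bnip3, a mitophagy receptor, had 81 and 37 with PBS against 35 and 0 with TSLP (reads), whereas its relative Bnip3l had 1956 and 1688 with PBS against 1724 and 1632 with TSLP. Kdm3a, a histone demethylase, had 2218 and 2815 with PBS against 3637 and 2638 with TSLP and a fold change of 0.32, which was 0.13 without PBS 1 and 0.52 without PBS 2. Over all 70 related genes outside the 39, 47 were tested, 2 had an unadjusted p under 0.05 (Pdpr and Ankrd37), 17 had a fold change above 0 and 30 below, against 1.69% with such a p and 51.2% above 0 over all genes. This lean also rested on PBS 1, which was above PBS 2 for 30 of the 47. Against PBS 2 alone, most of the 47 did not lie below 0. The 7 genes of the pentose phosphate pathway had fold changes from -0.25 to 0.17, and none had an unadjusted p under 0.05. Both limits rested on single libraries. The lowest, Pgls, was low in TSLP 1 only (404 and 369 with PBS against 254 and 412 with TSLP, normalized). The highest, Rpe, was lowest in PBS 2 (403 and 310 with PBS against 420 and 379 with TSLP). Txnip, which glucose induces and which restrains its uptake, had 4909 and 3672 with PBS against 4381 and 3327 with TSLP (reads) and a fold change of -0.14. Arrdc4, its relative, which glucose also induces, had 252 and 188 with PBS against 79 and 162 with TSLP (reads; log2 fold change -0.93, SE 0.50, unadjusted p = 0.0980), and both TSLP samples were below both PBS samples. TSLP 1 was the lower of these, and the fold change of Arrdc4 was -0.34 without TSLP 1 and -1.51 without TSLP 2.

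Short stretches of promoter are shown for 3 of the 7 genes whose TSLP samples lay above their PBS samples, and for Ldha, whose groups overlapped. They were picked among genes that hold the letters searched. The letters searched were ACGTG and, as the other strand, CACGT, the core of the hypoxia response element. CACGTG, an E-box, holds both and overlaps them. The search covered the 250 bases before each RefSeq start (assembly GRCm38.p6, the mm10 sequence), where 37 of the 39 genes matched by symbol with 52 starts. The letters were present before 21 of these starts (40.4%), against 16.6% of all 32851 starts, and 18 genes had at least 1. For the variant GCGTG and CACGC the shares were 53.8% and 28.2%. Shared base composition was not taken into account, and a match is not a bound site. The 60 bases printed lie before one of the RefSeq starts of each gene and read 5′ to 3′ on the strand of the gene, with ACGTG and CACGT in capitals and the variant left in lower case, from chr2:11502111-11502170 (minus strand), chr19:41911729-41911788, chr7:46845742-46845801 and chr12:73907769-73907828 (plus strand).

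Pfkfb3: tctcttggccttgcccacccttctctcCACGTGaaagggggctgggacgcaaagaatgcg

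Pgam1: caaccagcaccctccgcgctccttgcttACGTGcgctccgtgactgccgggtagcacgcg

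Ldha: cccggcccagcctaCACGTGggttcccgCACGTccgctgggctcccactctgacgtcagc

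Hif1a: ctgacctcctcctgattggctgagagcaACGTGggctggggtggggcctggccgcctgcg

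Isoforms of an enzyme were compared by their share of the family's RPKM. Among the listed isoforms of 10 families, the one with the highest share was the same in every library for 9. In the pair Egln1 and Egln3 it was not. The leader depends on the division by exon length in some families. In reads, Slc2a3 led Slc2a1 in every library, Eno2 led Eno3 in PBS 1 and TSLP 2, Pdk1 led Pdk3 in both PBS libraries, and Egln1 led Egln3 in every library, so that 6 of the 10 families had the same leader throughout on both scales. Ldha held 91.8% and 91.6% with PBS against 92.2% and 92.6% with TSLP of the counted lactate dehydrogenase level. Shared sequence limits the counts of both Ldha and Ldhb. Aldoa held at least 98.7% of the aldolase level in each library, and Hk1 79.7% to 85.7% of the hexokinase level. Pfkp held 55.4% and 48.5% with PBS against 48.9% and 49.5% with TSLP of the phosphofructokinase level. Its PBS 1 share stood above the others, and TSLP minus PBS was -2.78 percentage points with all libraries and 0.669 without PBS 1. Pfkl was close behind on this scale, at 40.4% ± 2.96 with PBS and 41.4% ± 2.65 with TSLP (SD, n = 2). In reads the mean share over the 4 libraries was 69.2% for Pfkp and 27.9% for Pfkl. Their closeness therefore depends on the exon lengths used, 13401 bases for Pfkp and 6675 for Pfkl. Among the glucose transporters Slc2a1 held 53.6% and 53.3% with PBS against 50.1% and 45.0% with TSLP, and its share was lower in both TSLP samples. Slc16a1 held 61.1% and 64.6% with PBS against 67.0% and 66.6% with TSLP of the monocarboxylate transporter level, higher in both TSLP samples. Pdk3 held 71.9% and 70.5% with PBS against 81.7% and 72.0% with TSLP of the kinase level. Eno3 held 76.2% ± 7.34 with PBS and 76.8% ± 5.96 with TSLP of the counted enolase level, in which Eno1 is at 0. Egln1 held 47.4% and 67.2% with PBS against 55.4% and 62.0% with TSLP of the sum of Egln1 and Egln3, so that in PBS 1 alone Egln3 was ahead. The third prolyl hydroxylase, Egln2, which is outside the list, was above both in every library, with 27.9, 32.2, 23.4 and 25.2 RPKM in the order of the libraries. With 2 samples against 2, an exact permutation test of a share (two-sided) cannot go below p = 0.333, which was reached by the shares of Slc2a1, Aldoa, Ldha, Slc16a1 and Pdk3 among the leading isoforms.

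**Figure D4:**
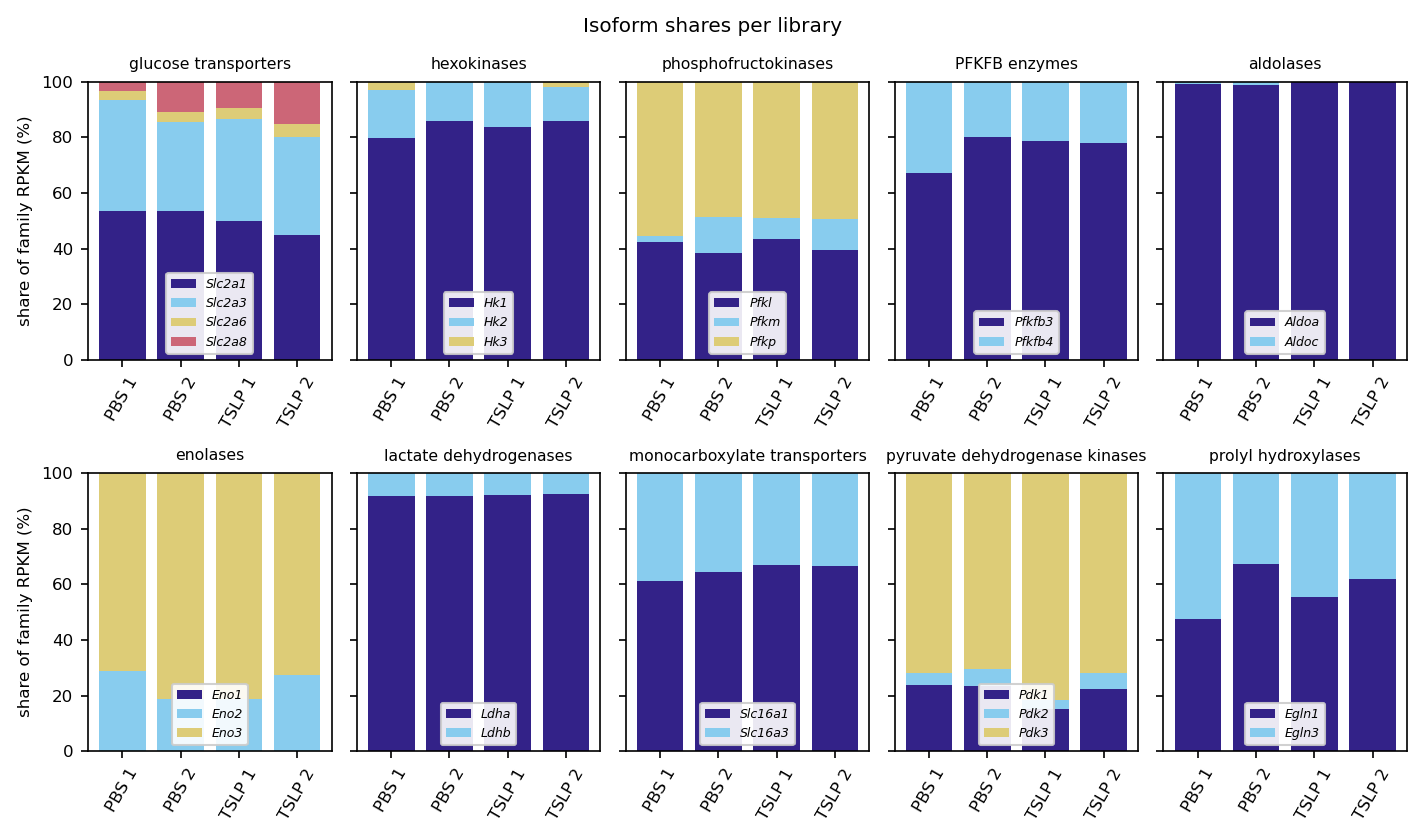
Share of each isoform (y axis, % of the family's summed RPKM) in the 4 libraries (x axis) for 10 families, stacked to 100%. The leading plotted isoform keeps its place in every library except in the pair Egln1 and Egln3, where PBS 1 has Egln3 ahead. Egln2, higher than both, is outside the 39 genes and not plotted.

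The clearest shared movement was between libraries of the same group. PBS 1 was above PBS 2 for 30 of the 38 genes (78.9%), against 48.2% of all genes tested, with a median log2 difference of 0.44 against -0.02 over all genes. TSLP 1 was above TSLP 2 for 27 of the 38 (71.1%), against 49.9%, with a median of 0.15 against 0.00. Both held for 22 genes (57.9%), against 24.0% of all genes. This joint share is near what the 2 separate shares would give if unrelated, so it is not a further result. Egln3 had the largest PBS difference among genes with at least 100 reads in every library, 1.62, and a TSLP difference of 0.43. For Tpi1 the differences were 0.95 and 0.56, for Slc16a3 0.64 and 0.57, and for Hk2 0.64 and 0.70. Across the 38 genes the size of the PBS difference did not go with that of the TSLP difference (Spearman's rho -0.04, genes sharing the 4 libraries). With the trend of each library over exon length removed, a setting added after seeing the data, the counts were 31 and 27 genes and the medians 0.41 and 0.12. In PBS 8 genes went the other way, namely Pfkm, Slc2a8, Pfkfb3, Hif1a, Aldoc, Pfkl, Pfkp and Pgk1, with differences from -2.88 for Pfkm to -0.06 for Pgk1. These library differences were a pattern noticed in the data, and their cause was not tested. In such bulk samples, fewer cells of a type and less RNA per cell cannot be told apart.

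**Figure D5:**
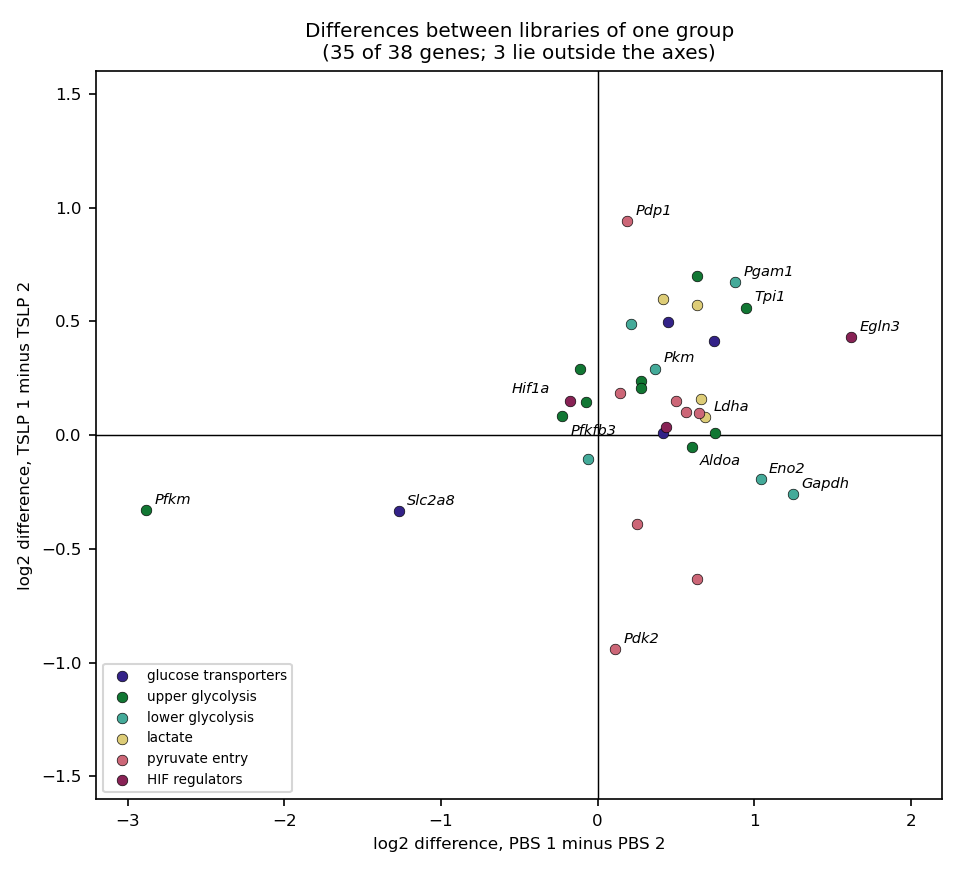
Log2 difference between the libraries of one group, PBS 1 minus PBS 2 (x axis) and TSLP 1 minus TSLP 2 (y axis), for 35 of the 38 tested genes, coloured by role (Hk3, Aldoc and Mpc1, with a library at 0 reads, lie outside the axes). Most points lie to the right of 0, and 22 of the 38 genes are above 0 on both axes.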

How the data were processed

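The members and gene lists were chosen with earlier results of these data known. The authors mapped 50-base single-end reads to mm10 with HISAT2, counted them per gene with HTSeq and divided by DESeq2 size factors. The deposited values are therefore a signal, normalized read counts, without a depth or a filter. The annotation and strand setting of the counting are not given in the sources used here, so that overlapping antisense genes may share reads. Every value was a whole multiple of a step per library (100% within 0.01 of whole), so reads were recovered.

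Testing was limited to genes that reached a normalized count of 10 in 2 or more libraries, and was done by limma 3.58.1 (R 4.3.3) on log2(value + 1) with an intensity trend. On this scale the fold change of low genes depends on the value added. edgeR 4.0.16 and DESeq2 1.42.0 ran on the recovered reads as alternatives, as did other scalings, filters, added values, a replicate block, removal of the length trend and leaving out each library. Exon lengths and positions came from GENCODE release M21. The exon length of a gene took in every base of any annotated exon of any of its transcripts, each counted once. No reads allow up to 3 reads, for counting error only. The fits were tested on simulated data. The counts simulated for them had a common setting of spread for all genes and no length trend like that of PBS 1. They do not show how the fits perform with such a library. The genes named are all members, and related genes by a fixed list.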

Additional observations from a re-analysis of the deposited data

How the results depend on the processing

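No alternative gave one of the 38 genes an adjusted p under 0.05 (smallest 0.269 over 16 alternatives), and 11 of the 38 kept the sign of their fold change under all of them. The count of genes with an unadjusted p under 0.05 was 427 by limma without the intensity trend, 358 with no filter on low values, 388 with a replicate block and the length trend removed, and 79 to 1858 with a library left out. It was 1858 without PBS 2 and 79 without TSLP 2. The count among the 38 genes was 1 by edgeR, 0 by DESeq2, 0 without the intensity trend, 1 with no filter, 1 with a filter at 50, 4 with the block and the length trend removed, and 0 to 5 with a library left out. The 5 without PBS 2 were Slc2a8, Pfkm, Pfkfb3, Ldha and Hif1a, or 13.2% of the 38 against 16.3% of all genes in that fit. In these fits the lone sample of a group is assumed to vary like the other group. Their median fold change was -0.273 to 0.167 with a library left out, and -0.273 without PBS 2. The genes whose groups did not overlap numbered 15 to 30 of the 38 with a library left out, or 39.5% to 78.9%, against 56.8% to 76.3% of all genes tested in the same settings. The share of Ldha differed by 0.674 percentage points, or 0.348 without division by exon length. Same-numbered libraries did not deviate together (Pearson's r 0.00072 across genes), and the labels do not say whether a number marks a shared animal or day, so the numbers were not taken to pair the samples. PBS 1 and its length trend enter this correlation. With the replicate block alone, 258 genes (2.26%) and 2 of the 38 (5.26%) had an unadjusted p under 0.05.

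Fold changes that crossed 0 in fits with all libraries had small values there, although that of Mpc1 was 1.67 in the main limma fit. They were Slc2a3 -0.0015, Gpi1 -0.0021, Aldoa -0.0042, Mpc1 -0.17, Egln1 -0.0024 by DESeq2; Slc2a3 -0.0029, Gpi1 -0.0037, Aldoa -0.006, Gapdh -3.2e-05, Mpc1 -0.18, Egln1 -0.0041 by edgeR; Slc2a3 -0.042, Gpi1 -0.046, Pfkl -0.017, Tpi1 0.031, Ldha 0.038, Ldhb 0.00085, Pdk1 -0.041, Egln3 0.057, Bsg 0.062 with the length trend removed, with or without the block; Gpi1 -0.00077 with TMM scaling and -0.0056 with scaling to total reads. With each library left out in turn, fold changes that crossed 0 ran over Slc2a1 -0.39 to 0.11, Slc2a3 -0.34 to 0.40, Hk1 -0.28 to 0.0019, Hk2 -0.67 to 0.026, Hk3 -3.02 to 1.98, Gpi1 -0.14 to 0.14, Pfkl -0.11 to 0.18, Pfkm -0.64 to 2.24, Pfkfb4 -0.27 to 0.49, Aldoa -0.27 to 0.33, Tpi1 -0.55 to 0.40, Gapdh -0.50 to 0.75, Eno2 -0.92 to 0.12, Pkm -0.25 to 0.12, Ldha -0.37 to 0.32, Ldhb -0.49 to 0.17, Slc16a1 -0.26 to 0.34, Slc16a3 -0.52 to 0.12, Pdk1 -0.27 to 0.36, Pdk2 -0.36 to 0.58, Pdha1 -0.069 to 0.12, Pdhb -0.41 to 0.092, Dlat -0.18 to 0.21, Pdp1 -0.81 to 0.13, Mpc1 -1.44 to 4.78, Egln1 -0.21 to 0.23, Egln3 -0.86 to 0.76, Bsg -0.30 to 0.12, Emb -0.40 to 0.15, Txnip -0.33 to 0.044. Fold changes that kept their sign but moved by over 1.5 times ran over Slc2a6 0.11 to 0.53, Slc2a8 0.38 to 1.65, Pfkp -0.15 to -0.0037, Aldoc -5.99 to -1.49, Pgk1 0.085 to 0.19, Pgam1 0.83 to 1.71, Pgam2 2.0 to 4.99 (3.49 with all libraries), Eno3 -0.60 to -0.11, Pdk3 0.18 to 0.83, Mpc2 -0.60 to -0.032, Pdpr 0.41 to 2.70, Arnt 0.05 to 0.22, Epas1 -0.58 to -0.13, Ankrd37 -3.72 to -1.44, Bnip3 -5.78 to -0.69, Kdm3a 0.13 to 0.52, Arrdc4 -1.51 to -0.34. The cause was not tested. Eno1, Gapdh, Aldoc, Hk3, Pdk2, Slc2a6 and Mpc1 had under 100 reads in every library, which leaves a large counting error.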
